A study of Homo sapiens with 6 samples.

Results

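The J-domain (DNAJ) co-chaperones are the family that delivers client proteins to HSP70. They were taken from the gene count table by symbol, as every gene named DNAJA, DNAJB or DNAJC with a number whose largest count over the 6 libraries was above 12. All 41 such symbols in the table passed that limit, among 30270 genes listed and 23952 genes tested. They comprised 4 genes of class A, 11 of class B and 26 of class C. By the place where the protein is known to work, 16 were assigned to the cytosol or nucleus, 11 to the endoplasmic reticulum (ER), 7 to the mitochondrion and 3 to endosomes or vesicles, and 4 were not assigned.

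The libraries were made from total RNA of HEK 293T cells, which derive from human embryonic kidney and carry the SV40 large T antigen, after removal of ribosomal RNA. WT is the wild-type line (3 libraries). ΔTUT4/7 is a double knockout of TENT3A and TENT3B, other names of the uridylyltransferases TUT4 and TUT7 (3 libraries). The knockout cells were made earlier and received as a gift of 1 line, while the WT cells came from a cell collection (ATCC). Whether this WT is the parent of the knockout line is not stated, so line origin and genotype cannot be told apart. The comparison is between 2 cell lines with 3 libraries each. The labels call them biological replicates and do not say that cultures were started separately, so the p-values measure the spread between these libraries.

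Library totals ran from 18757228 to 33148937 counts. Levels are given below as CPM, each gene's count relative to the library total (per 1e+06 counts) after scaling by the trimmed mean of M-values (TMM). The targeted genes were examined first. TUT4 had 212, 216 and 206 CPM in WT replicates 1, 2 and 3 and 882, 920 and 917 CPM in the libraries labelled ΔTUT4/7, which is 2.10 ± 0.04 (SE) on the log2 scale. TUT7 fell by 1.25 on the log2 scale. The TUT4 count goes against the knockout label, although a count over all exons does not tell whether the transcript is intact, so each direction given here rests on that label, with WT as the reference. Of 5 markers of HEK 293 cells, VIM was higher and PAX2, LIN28B, NEFL and NEFM were lower, and their summed level went from 1960 ± 107 to 1480 ± 6.74 CPM. NEFM had 18074 to 34030 counts in the WT libraries and 0, 0 and 1 in those labelled ΔTUT4/7. Of the markers of other cell types, ALB had at most 7 counts and PECAM1 at most 4 in any library, and COL1A1 was at 20.4 ± 1.57 and 7.45 ± 0.80 CPM. The part of these differences in the results below was not tested.

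A J protein binds an HSP70 through its J domain and stimulates the hydrolysis of ATP by which the HSP70 closes on a client protein. Nucleotide exchange factors then release ADP and open it again. Class A proteins carry the J domain, a glycine- and phenylalanine-rich stretch, a zinc-finger-like region and client-binding domains. Class B proteins lack the zinc-finger-like region. Class C proteins share only the J domain and are mostly specialised, and many of them act at 1 organelle or complex. Several J-protein genes are induced by heat shock factor or by the unfolded protein response of the ER.

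The promoters were searched for 3 motifs of those responses, on both strands of RefSeq windows that run from 250 bases before to 50 bases after an annotated start (GRCh38.p14). The stretches shown hold matches in 3 cytosolic members that are compared below and the match in the only member with the ER motif. Further matches to the 2-unit motif, not shown, lie at position -198 of DNAJA1 and at position 2 from another annotated start of DNAJB1. Capitals mark the match.
DNAJA1 (chr9:33025243-33025302, plus strand, positions -30 to 30 from the start): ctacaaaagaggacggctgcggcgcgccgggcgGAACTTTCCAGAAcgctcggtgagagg
DNAJB6 (chr7:157336849-157336908, plus strand, positions -155 to -96 from the start): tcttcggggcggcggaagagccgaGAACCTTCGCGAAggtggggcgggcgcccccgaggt
DNAJB1 (chr19:14518426-14518485, minus strand, positions -88 to -29): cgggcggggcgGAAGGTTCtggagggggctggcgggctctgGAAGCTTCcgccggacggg
DNAJC10 (chr2:182716106-182716165, plus strand, positions -151 to -92): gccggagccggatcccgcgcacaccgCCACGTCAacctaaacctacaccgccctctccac

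Of the 41 members, 38 had a window, 50 windows in all. A heat shock element of 3 units (GAA, TTC and GAA, spaced by 2 bases) was found in 0.490% of all 35116 windows and, among the members, at DNAJA1 and DNAJB6. An element of 2 units (GAANNTTC), which every match to the longer motif also contains, was found in 6.77% of all windows and at 6 members, namely DNAJA1, DNAJA4, DNAJB1, DNAJB6, DNAJB7 and DNAJC6. The ER stress motif TGACGTGG was found in 0.729% of windows and at DNAJC10, where it lies on the opposite strand and reads as CCACGTCA. These are matches of letters and do not show that a factor binds there. Other motifs of the ER stress response were not searched, so a member without this match may still hold one.

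Over the whole family, 27 of 41 members differed between the groups at a false discovery rate (FDR, Benjamini-Hochberg over all genes tested) under 0.05 in edgeR's quasi-likelihood test. Of these, 18 were higher and 9 lower in the libraries labelled ΔTUT4/7. In the same comparison 57.7% of all genes tested passed, 28.6% of them higher and 29.0% lower. Most members are abundantly expressed, and among the 12448 protein-coding genes whose mean count reached 50, 74.4% passed, 42.7% higher and 31.7% lower. Of the members, 65.9% passed, which lies between those backgrounds. By direction, 43.9% of the members were higher and 21.95% lower, so the higher share was near that of the protein-coding genes and the lower share was below both. No test compared these shares. The counts by class and location below are to be read beside them. The median log2 fold change of the members was 0.070, against -0.020 over all genes and 0.082 over the protein-coding genes. With scaling by library size alone or by the upper quartile the members' median was -0.045 and -0.030, while that of all genes was -0.13 and -0.12. The median of all genes thus moved by about the same amount as that of the members. At 2-fold or more, 3 members were higher (DNAJC6, DNAJC15 and DNAJB6) and 2 lower (DNAJB14 and DNAJC22), where 5.90% of all genes were higher and 12.4% lower, and 5.74% and 7.41% of the protein-coding genes. DNAJB6 and DNAJC22 lay close to the 2-fold limit, with log2 fold changes of 1.01 and -1.01. In bulk RNA, a change in each cell and a change in the share of cells that express a gene cannot be told apart. The groups did not overlap for 29 members, and for 62.7% of all genes and 77.3% of the protein-coding genes.

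**Figure D1:**
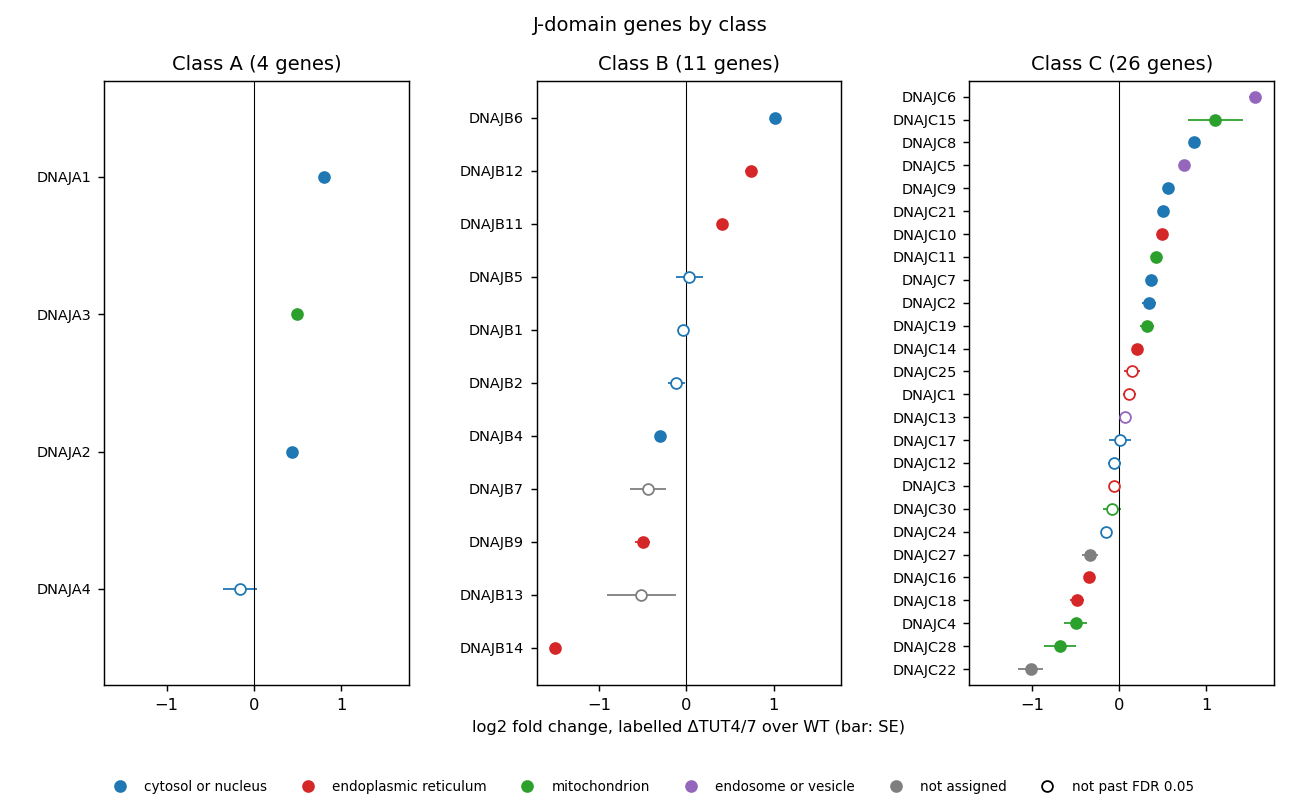
Log2 fold change of each of the 41 members, labelled ΔTUT4/7 over WT, with 1 panel for each class, points coloured by location and bars showing the SE. Filled points passed FDR 0.05, and open points did not. DNAJC6 at 1.55 and DNAJB14 at -1.503 mark the ends of the range.

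Class A holds the general co-chaperones of the cytosol and their mitochondrial relative DNAJA3. Of its 4 genes, 3 were higher, none was lower and the median log2 fold change was 0.47 (0.35 to 0.36 with scaling by library size alone or by the upper quartile). Beside these counts stand 28.6% higher and 29.0% lower of all genes tested, and 42.7% and 31.7% of the protein-coding genes. Summed over the class, the level was 349, 365 and 380 CPM in WT and 557, 584 and 576 CPM in the libraries labelled ΔTUT4/7, without overlap. The mean was 1.57-fold higher. For comparison, the summed level of class B was 1.07-fold and that of class C 1.29-fold higher. No test compared the classes, since their members are not replicates of a condition.

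DNAJA1 (ENSG00000086061, chromosome 9, 33025273 to 33039907, plus strand, hg38) encodes a farnesylated cytosolic partner of HSP70. It was measured at 176, 195 and 205 CPM in WT and at 323, 345 and 338 CPM in the libraries labelled ΔTUT4/7. All 3 of the latter lay above all WT libraries. It rose by 0.80 ± 0.05 (SE) on the log2 scale (adjusted p 2.62e-11, edgeR). DNAJA1 made up 52.6% ± 1.82 of the class A level in WT and 58.6% ± 0.52 in the other group.

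DNAJA2, also a class A member of the cytosol, was at 84.9, 88.6 and 92.6 CPM in WT and at 114, 127 and 120 CPM in the libraries labelled ΔTUT4/7. The groups did not overlap, and the log2 fold change was 0.44 ± 0.05 (adjusted p 2.46e-07, edgeR). DNAJA3, which serves the mitochondrial HSP70 HSPA9, was at 84.9, 78.8 and 78.8 CPM and at 116, 108 and 116 CPM. Its log2 fold change was 0.49 ± 0.05 (adjusted p 3.39e-08, edgeR), and the median of 171 expressed genes within 5 Mb of it was 0.38. DNAJA4, another cytosolic member, was measured at a low level of 2.25 to 3.51 CPM over the 6 libraries, the groups overlapped, and the adjusted p was 0.518 in edgeR.

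Class B had 3 members higher (27.3%), 3 lower (27.3%) and 5 not past the test. These shares were near the 28.6% and 29.0% of all genes tested, where the protein-coding genes had 42.7% and 31.7%. The median of class B was -0.12 on the log2 scale. In the cytosol class B holds the stress-inducible HSP40 DNAJB1 and its relatives, which refold proteins with HSP70, and DNAJB6, which holds back the aggregation of polyglutamine proteins. DNAJB6 (ENSG00000105993, chromosome 7, 157335381 to 157417439, plus strand) was at 77.1, 81.6 and 75.1 CPM in WT and at 156, 162 and 153 CPM in the libraries labelled ΔTUT4/7. It rose 2.02-fold, or by 1.01 ± 0.05 on the log2 scale (adjusted p 1.59e-13, edgeR), and became the member of class B with the highest level.

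DNAJB1 (ENSG00000132002, chromosome 19, 14514769 to 14560391, minus strand) was chosen for display after its values were seen, since it is the classic HSP40. It was at 101, 98.1 and 105 CPM in WT and at 95.05, 96.4 and 104 CPM in the libraries labelled ΔTUT4/7. The groups overlapped. The log2 fold change was -0.040 with a 95% interval of -0.15 to 0.07, so a rise or fall of the size seen in DNAJB6 or DNAJA1 lies outside the interval. It was, however, called lower at -0.15 (adjusted p 0.0133 in edgeR) by library size alone at -0.14 (0.0230) by the upper quartile and at -0.11 (0.0394) with a GC and length offset. Its close relative DNAJB4 fell by 0.30 on the log2 scale (adjusted p 6.15e-04, edgeR). DNAJB5, another relative, had a log2 fold change of 0.034 ± 0.15 and the ubiquitin-binding DNAJB2 one of -0.12 ± 0.10, and neither passed the test. DNAJB7, known from testis, and DNAJB13, of the radial spokes of cilia, were at 0.21 to 4.30 CPM in every library and did not pass it either.

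**Figure D2:**
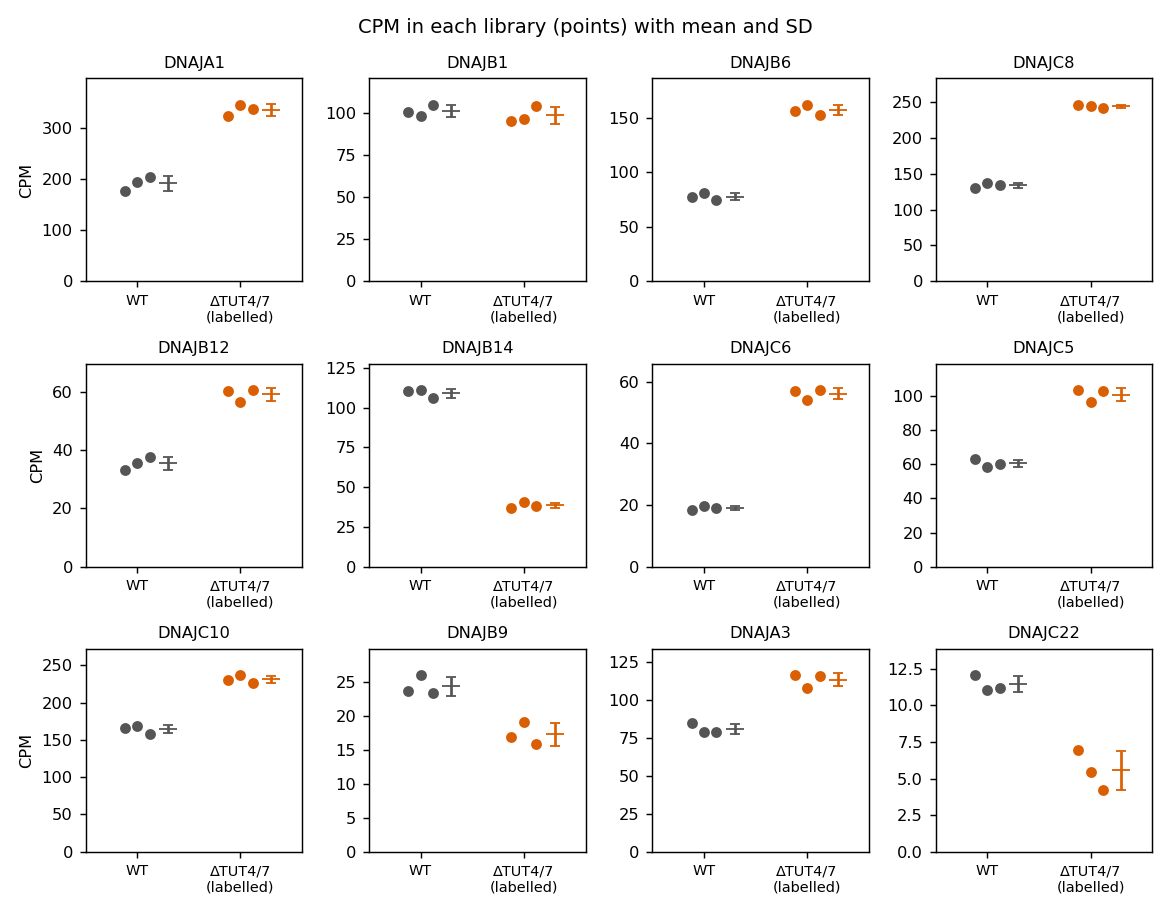
CPM of 12 members in each of the 6 libraries (points; WT in grey, libraries labelled ΔTUT4/7 in orange), with the mean and SD of 3 libraries beside them and axes that start at 0. The groups are apart in 11 panels and overlap for DNAJB1.

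In the ER, 4 members (36.4%) were higher, 4 (36.4%) lower and 3 not past the test. Of all genes tested 28.6% were higher and 29.0% lower, and of the protein-coding genes 42.7% and 31.7%. The ER median of 0.12 went to 0.0010 and 0.015 with scaling by library size alone and by the upper quartile. The opposed directions were clearest in DNAJB12 and DNAJB14, related ER membrane proteins that take part in the degradation of misfolded membrane proteins. DNAJB14 (ENSG00000164031, chromosome 4, 99896248 to 99946618, minus strand) was at 111, 111 and 106 CPM in WT and at 37.2, 40.5 and 38.0 CPM in the libraries labelled ΔTUT4/7. It had the smallest p of all members and fell by 1.503 on the log2 scale (SE 0.05, adjusted p 1.70e-15, edgeR), so that WT was 2.84-fold higher. DNAJB12 (ENSG00000148719, chromosome 10, 72332830 to 72355149, minus strand) was at 33.3, 35.6 and 37.7 CPM and at 60.5, 56.8 and 60.7 CPM. It rose by 0.74 ± 0.06 (adjusted p 1.22e-09, edgeR).

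Per kb of the main annotated transcript, DNAJB12 was at 0.61, 0.65 and 0.72 times the level of DNAJB14 in WT and at 3.31, 2.85 and 3.25 times in the libraries labelled ΔTUT4/7. The order of the pair was therefore reversed in all libraries of the second group. Their summed level was 145 ± 1.74 CPM in WT and 97.9 ± 0.75 CPM in the other group. The 26 expressed genes within 5 Mb of DNAJB14 had a median log2 fold change of -0.70, and 3 of them were above 0. The 85 around DNAJB12 had a median of 0.31. After subtraction of those medians, an alternative chosen after seeing the data, the differences were -0.80 and 0.43. The part of the neighbourhood in the results was not tested further.

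Among the other ER members, DNAJC10 (ERdj5, a disulfide reductase that prepares proteins for degradation) had the highest CPM of class C in WT. It was at 166, 169 and 159 CPM in WT and at 230, 237 and 227 CPM in the libraries labelled ΔTUT4/7, without overlap, and rose by 0.49 ± 0.04 on the log2 scale (adjusted p 3.62e-09, edgeR). Its main transcript is 20144 bases long, and its level per kb was only 8.16 ± 0.26 and 11.5 ± 0.25. DNAJB11 (ERdj3), which helps HSPA5 with newly made proteins, rose by 0.41 ± 0.06, and DNAJC14, of receptor export, by 0.21 ± 0.06. The call of DNAJC14 was lost with scaling by library size alone (0.091, adjusted p 0.190 in edgeR) and by the upper quartile (0.11, 0.123). The 152 expressed genes around DNAJC14 had a median of 0.20, which leaves 0.0034 for it after subtraction. DNAJB9 (ERdj4), a target of the unfolded protein response that restrains IRE1, fell by 0.50 (SE 0.09, adjusted p 3.48e-05, edgeR). It lay between 23.5 and 26.0 CPM in WT and between 15.9 and 19.1 CPM in the libraries labelled ΔTUT4/7. The ER membrane proteins DNAJC16 and DNAJC18 fell by 0.35 and 0.48. DNAJC3 (p58IPK), another co-chaperone of HSPA5, had a log2 fold change of -0.059 ± 0.05 (adjusted p 0.317, edgeR), although the 32 expressed genes around it had a median of 0.58. With scaling by library size alone and by the upper quartile it was called lower (-0.17 and -0.16). DNAJC1 and DNAJC25 were at 0.12 ± 0.07 and 0.15 ± 0.09 and did not pass the test.

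Of the 8 class C members of the cytosol or nucleus, 5 were higher and none was lower. The shares over all genes tested were 28.6% higher and 29.0% lower, and over the protein-coding genes 42.7% and 31.7%. DNAJC8 (ENSG00000126698, chromosome 1, 28199456 to 28233029, minus strand), a nuclear protein of the spliceosome, was at 130, 137 and 134 CPM in WT and at 245, 244 and 241 CPM in the libraries labelled ΔTUT4/7. It rose by 0.86 ± 0.04 on the log2 scale (adjusted p 3.29e-13, edgeR), while the median of 140 genes around it was 0.0033. DNAJC9, a chaperone of histones H3 and H4, was at 56.8, 57.4 and 58.8 CPM and at 82.4, 90.2 and 83.8 CPM, a rise of 0.57 ± 0.05.

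DNAJC21, which acts in the recycling of export factors of the large ribosomal subunit, was at 70.5, 72.8 and 75.1 CPM and at 101, 107 and 104 CPM, a rise of 0.51 ± 0.05. In both of these genes the groups were apart. DNAJC7, which binds HSP70 and HSP90, rose by 0.36 ± 0.06, and DNAJC2, a J protein of the ribosome, by 0.34 ± 0.08. DNAJC24, of diphthamide synthesis, was at -0.15 ± 0.06 and missed the threshold with an adjusted p of 0.0503 in edgeR, although its groups did not overlap. It was called lower with scaling by library size alone (-0.26, adjusted p 0.00116) and by the upper quartile (-0.25, 0.00172), while the GC and length offset gave -0.038 (0.575). The splicing factor DNAJC17 and DNAJC12, a co-chaperone of aromatic amino acid hydroxylases, had log2 fold changes of 0.0097 ± 0.12 and -0.053 ± 0.08.

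The 3 members of endosomes and vesicles act in membrane traffic. DNAJC6 (auxilin, ENSG00000116675, chromosome 1, 65248219 to 65415871, plus strand) brings HSC70 to clathrin coats for their disassembly. It was at 18.4, 19.8 and 19.1 CPM in WT and at 56.9, 54.1 and 57.3 CPM in the libraries labelled ΔTUT4/7. This rise of 1.55 ± 0.06 on the log2 scale (2.93-fold, adjusted p 1.59e-14, edgeR) was the largest of the family, and the genes around it had a median of 0.33. GAK, the ubiquitously expressed auxilin relative whose symbol falls outside the rule, was at 54.8 ± 3.20 and 59.7 ± 2.34 CPM and did not pass the test (adjusted p 0.0738, edgeR). The sum of both was 73.9 ± 2.53 and 116 ± 3.61 CPM.

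DNAJC5, the cysteine string protein of secretory vesicles, was at 63.0, 58.6 and 60.1 CPM in WT and at 104, 96.3 and 103 CPM in the libraries labelled ΔTUT4/7. It rose by 0.74 ± 0.05 (adjusted p 8.53e-11, edgeR). Of the 57 expressed genes within 5 Mb of DNAJC5 on chromosome 20, 53 had a log2 fold change above 0 and the median was 0.70, which leaves 0.040 for DNAJC5 when it is subtracted. DNAJC13 (RME-8), of endosomal sorting, was at 0.070 ± 0.05 and did not pass the test (adjusted p 0.207, edgeR). With the GC and length offset DNAJC13 was called higher, at 0.25.

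Of the 7 mitochondrial members, 4 were higher, 2 lower and 1 not past the test. Beside DNAJA3, these were DNAJC11, associated with the cristae complex MICOS, with a rise of 0.42 ± 0.05, and DNAJC19, of the import motor at the inner membrane, with a rise of 0.32 ± 0.08. DNAJC15, the relative of DNAJC19, rose by 1.10 ± 0.32 but rested on 13 to 39 counts per library. Its values, shown for its 2-fold call, were 0.92, 0.50 and 0.52 CPM in WT and 1.22, 1.598 and 1.28 CPM in the libraries labelled ΔTUT4/7. The median of the mitochondrial group was 0.32, and 0.054 with a minimum mean count of 50, which drops DNAJC15. The group's 4 higher and 2 lower members stand beside 28.6% higher and 29.0% lower of all genes tested. For the protein-coding genes the shares were 42.7% and 31.7%. DNAJC4 and DNAJC28, both listed as mitochondrial, fell by 0.50 and 0.68, and DNAJC30 was at -0.083 ± 0.10. Among the members without an assigned location, the membrane protein DNAJC22 was at 12.1, 11.0 and 11.2 CPM in WT and at 6.96, 5.46 and 4.24 CPM in the libraries labelled ΔTUT4/7. It fell by 1.01 (SE 0.14, adjusted p 3.62e-06, edgeR), while the median of 130 genes around it was 0.28. DNAJC27, a Rab-like GTPase with a J domain, fell by 0.33.

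**Figure D3:**
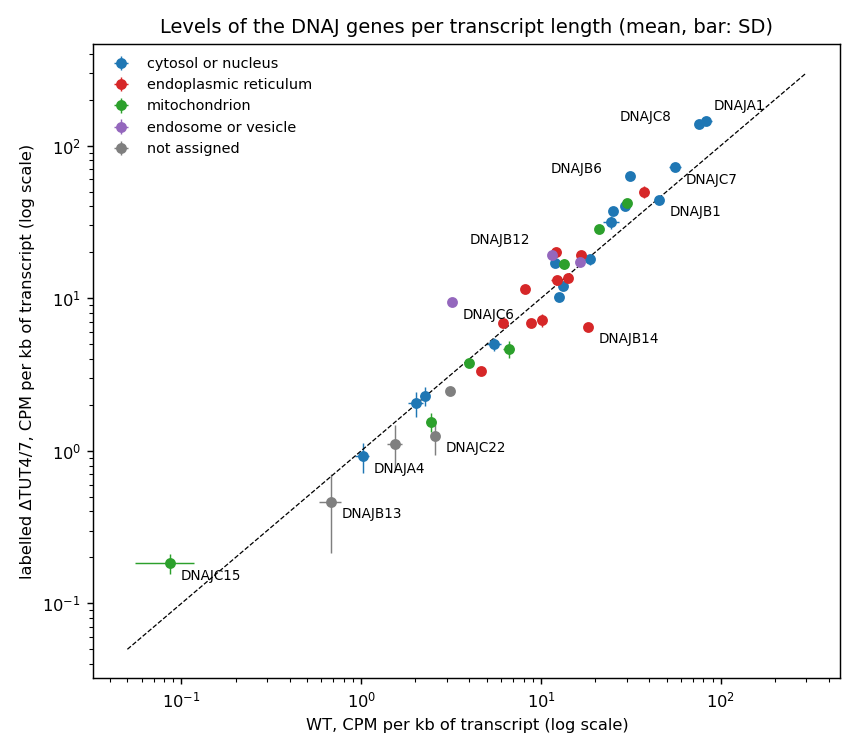
Mean level of the 41 members in WT (x axis) and in the libraries labelled ΔTUT4/7 (y axis), in CPM per kb of the main annotated transcript on log axes, with bars for the SD of 3 libraries and a dashed line of equal levels. DNAJA1 and DNAJC8 stand at the top in both groups, DNAJC6 is farthest above the line, and DNAJB14 is farthest below it.

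To compare levels between genes, CPM was divided by the length in kb of the main annotated transcript. In WT the order was led by DNAJA1 at 82.8 ± 6.26, DNAJC8 at 75.9 ± 1.92, DNAJC7 at 55.9, DNAJB1 at 45.1 ± 1.499 and DNAJB11 at 37.5 ± 2.27 CPM per kb. In the libraries labelled ΔTUT4/7 DNAJA1 was at 145 ± 4.86 and DNAJC8 at 138 ± 1.29. DNAJC7 followed at 72.1, DNAJB6 at 63.1 ± 1.83 and DNAJB11 at 49.98 ± 4.33 CPM per kb. DNAJB1 moved from rank 4 to rank 6 and DNAJB14 from rank 13 to rank 28 of 41. The libraries of DNAJA1 and DNAJC8 overlapped in WT, while the other neighbours among these leading genes did not. The lowest member was DNAJC15 at 0.087 and 0.183 CPM per kb. These levels assume that the main transcript is the one expressed, which was not measured.

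J proteins work with the HSP70s, so 24 HSP70 genes, nucleotide exchange factors and the HSP70 escort gene DNLZ were counted in the same fit. Of these, 18 (75.0%) were higher and 4 (16.7%) lower. Of all genes tested 28.6% were higher and 29.0% lower, and of the protein-coding genes 42.7% and 31.7%. At 2-fold or more, 9 partners were higher and 1 (HSPA2) lower, beside 5.90% and 12.4% of all genes and 5.74% and 7.41% of the protein-coding genes. These shares were not tested against each other. The partners' median was 0.82 (0.71 to 0.72 with scaling by library size alone or by the upper quartile). In the cytosol 12 of 16 were higher. The constitutive HSPA8 was at 820, 1099 and 1080 CPM in WT and at 2608, 2643 and 2633 CPM in the libraries labelled ΔTUT4/7. The exchange factor HSPH1 was at 117 ± 6.42 and 471 ± 10.1 CPM, a rise of 2.01 ± 0.05 on the log2 scale. The stress-inducible HSPA1B rose by 2.22 ± 0.05 (302 ± 21.1 to 1407 ± 71.9 CPM) and HSPA1A by 1.43 ± 0.22 (1.75 ± 0.17 to 4.63 ± 1.47 CPM). These are near-identical genes, and the split of reads between them is uncertain. The exchange factors BAG1, BAG2, BAG3, HSPBP1 and HSPA4 rose by between 0.91 and 1.13, and BAG4 and BAG5 by 0.29 and 0.37. HSPA4L fell by 0.35, and HSPA2, the testis-enriched HSP70, fell by 2.13. The HSP70 genes HSPA1L and HSPA6 had at most 21 and 17 counts in any library. Their log2 fold changes were -0.60 ± 0.41 and -0.72 ± 0.45, and neither passed the test (adjusted p 0.222 and 0.179, edgeR).

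In the ER, HSPA5 (BiP) rose by 0.27 ± 0.05 and its exchange factor HYOU1 by 0.61 ± 0.05, while HSPA13 and the exchange factor SIL1 fell by 0.34 and 0.29. In the mitochondrion all 4 partners were higher, led by DNLZ at 1.48 ± 0.22 (21 to 108 counts) and HSPA9 at 1.01 ± 0.04, followed by GRPEL1 at 0.74 and GRPEL2 at 0.19. Per kb, the summed level of the 8 cytosolic members of class A and B was 0.41, 0.34 and 0.35 times that of 7 cytosolic HSP70 genes in WT and 0.17, 0.18 and 0.18 times in the libraries labelled ΔTUT4/7. The summed RNA of these DNAJ genes was itself 1.48-fold and that of the HSP70 genes 3.02-fold higher. All these ratios are of RNA, and protein was not measured in these libraries. The ratio of DNAJA3 to HSPA9 per kb was 0.36 ± 0.02 in WT and 0.25 ± 0.01 in the other group, and that of DNAJC2 to HSPA14, its partner at the ribosome, was 1.59 ± 0.24 and 0.95 ± 0.04. In both the groups were apart. The ratio of DNAJB11 to HSPA5 was 0.32 ± 0.01 and 0.36 ± 0.03, with overlap between the groups. With 3 libraries against 3, an exact permutation test of such a ratio cannot go below p = 0.10, and none was run.

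**Figure D4:**
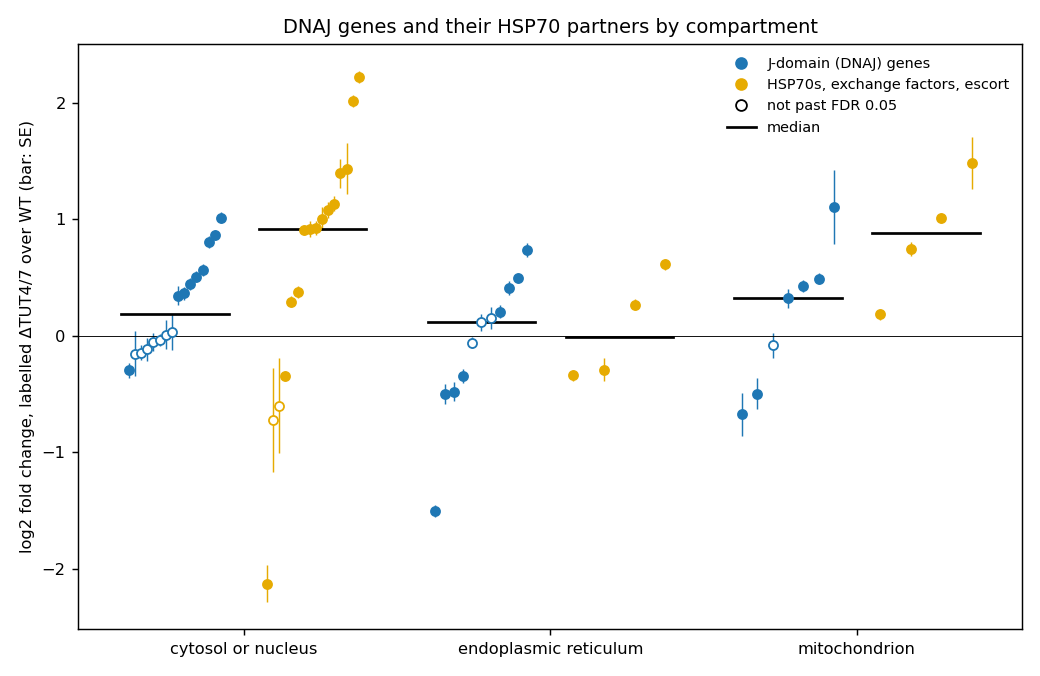
Log2 fold change, labelled ΔTUT4/7 over WT, of DNAJ genes (blue) and of their HSP70 partners (yellow) by compartment, with bars for the SE, filled points for genes past FDR 0.05 and black lines for medians. The partners' median is 0.92 in the cytosol, -0.013 in the ER and 0.88 in the mitochondrion, beside 0.19, 0.12 and 0.32 for the DNAJ genes.

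Among 4 further J-domain genes whose symbols fall outside the rule, none was called higher and 1 was called lower in edgeR. This was DNAJC5G, which had 17 to 30 counts in WT and 2 to 8 in the libraries labelled ΔTUT4/7. SEC63, the J protein of the ER translocon, was at 0.073 ± 0.04 and HSCB, of iron-sulfur cluster transfer, at 0.23 ± 0.16, and neither passed the test.

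Each member was also set beside the genes expressed within 5 Mb of it, since levels of neighbouring genes moved together in some regions. The medians of the neighbours ran from -0.70 at DNAJB14 to 0.70 at DNAJC5. DNAJC15 and DNAJC3, both on chromosome 13, went with neighbours at -0.63 and 0.58. DNAJC15 itself was higher and DNAJC3 did not pass the test, so neither moved with its neighbours. The values of DNAJC8, DNAJA1 and DNAJA2 were seen beside medians of 0.0033 to 0.079. DNAJB6 was seen beside a median of 0.34, with 21 of 24 neighbours above 0, and its difference from that median was 0.67. DNAJC9 was seen beside a median of 0.32, and the difference was 0.25. Copy number was not measured here.

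**Figure D5:**
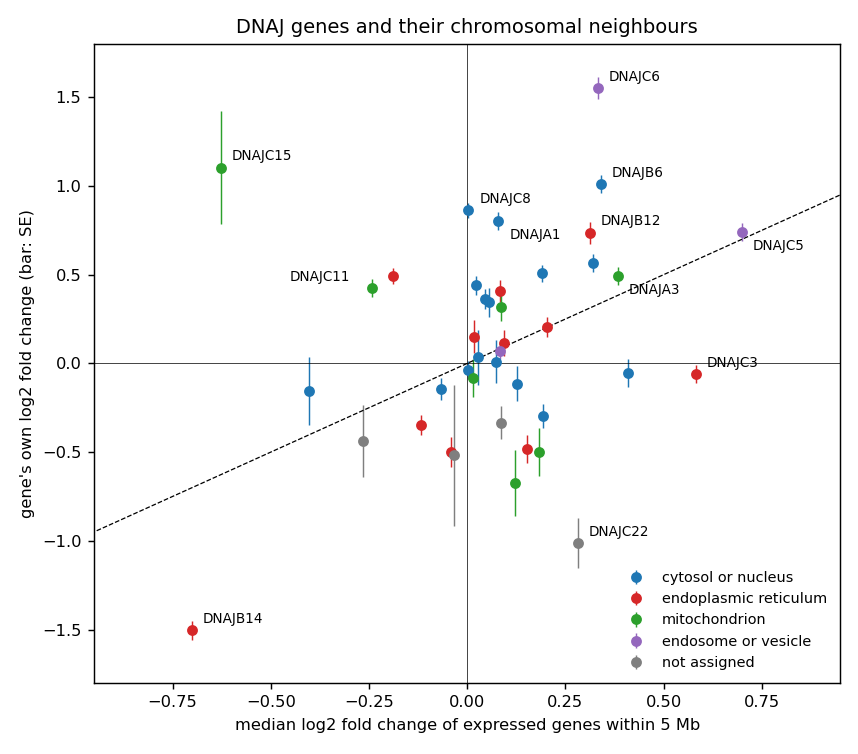
Log2 fold change of each member (y axis, bar: SE) against the median of the expressed genes within 5 Mb of it (x axis), with a dashed line where both are equal and colours for location. DNAJC5 lies on the line, DNAJB14 lies below it at the left, and DNAJC15 and DNAJC3 lie far from it.

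Exons of 22 of the 41 members overlap those of another annotated gene, and 15 of them overlap a protein-coding gene. The sources used here do not say whether reads were counted by strand, so reads of such pairs may be shared. The partners named here were chosen after their values were seen. CNP, opposite DNAJC7, rose by 0.43 ± 0.05, and TBCCD1, opposite DNAJB11, rose by 0.56 ± 0.08, which are the directions of those members. ORMDL2, opposite DNAJC14, rose by 0.68 ± 0.08. XPNPEP3, opposite DNAJB7, fell by 0.65. PMPCB, opposite DNAJC2, fell by 0.23, against the direction of DNAJC2. TECR, opposite DNAJB1, was at -0.093 ± 0.08 and did not pass the test (adjusted p 0.338, edgeR).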

How the data were processed

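RNA-seq libraries of 3 WT and 3 ΔTUT4/7 HEK 293T samples were analysed from the gene table of the study. According to its methods, paired-end reads were aligned to hg38 with STAR 2.7.3a, and Partek Flow 10.0.22 assigned them to transcripts of Ensembl release 102. The name of the deposited table gives the quantification as Partek's E/M model. The authors deposited estimated counts per gene, which share reads between overlapping or similar genes by a model, so values of close copies are uncertain. Of these values, 45.2% to 50.0% per library were not whole. A deposited table of the authors' own comparison (ratios, fold changes, p-values) was not used.

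Counts were rounded, and 23952 genes with a largest count above 12 were tested with edgeR 4.0.16 (R 4.3.3; TMM, robust quasi-likelihood fit, group as the only term). Adjusted p-values are Benjamini-Hochberg values over all of them. Errors are standard errors from the F statistic, and ± after a CPM is the SD of 3 libraries. CPM uses TMM-scaled library sizes, and levels per kb use the MANE Select transcript of GENCODE release 44. The table's stop column lies 1 base past the annotated end, which was taken off. Neighbours are tested genes within 5 Mb with a mean count of 50 or more. Libraries of a group differed by more than sampling noise (chi-square per degree of freedom 2.41 to 10.1), and library totals limit the precision of low genes most.

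Simulated data drawn from these libraries (22956 genes) were put through the same steps. The steps recovered 79.7% of 64 genes changed 1.5-fold, 95.7% of 69 changed 2-fold and 98.5% of 67 changed 4-fold. Far more genes differed in the real comparison, where 57.7% of all genes tested passed, so these shares are not its power. Recovery was not split by count level, so none is given for members with few counts, such as DNAJC15. Every member and every gene of the partner and marker lists could be named, with values in every library for the 12 members with the smallest p and for those with the highest summed CPM of a class. The members, classes, locations and lists were chosen with earlier results of these data known. Alternatives were other scalings (RLE, library size alone, upper quartile), DESeq2 1.42.0, limma 3.58.1 (voom, and log2(CPM + 1)), other count filters, a replicate block, each library left out, a GC and length offset (values for 98.7% of genes), a test against 1.5-fold and, added after seeing the data, subtraction of the neighbours' median. PTPRC, CD3E, HBB and DNAJC5B were not analysed here, and 1 J-domain gene outside the symbol rule is not reported here.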

Additional observations from a re-analysis of the deposited data

How the results depend on the processing

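Of the 27 members called, 26 kept their call and direction in all 16 alternatives other than the test against 1.5-fold, and DNAJC15 could not be tested at a minimum mean count of 50. The exception was DNAJC14. In the test against 1.5-fold 8 of all 41 members were called, 6 higher and 2 lower, and all 8 were among the 27. The same test called 5135 of all 23952 genes tested, and these shares were not compared by a test. It called 1 HSP70 partner lower. By library size alone and by the upper quartile, medians were -0.045 and -0.030 (all members), 0.35 and 0.36 (class A), -0.23 and -0.22 (class B), 0.019 and 0.033 (class C), 0.074 and 0.088 (cytosol or nucleus), 0.0010 and 0.015 (ER), 0.20 and 0.22 (mitochondrion), 0.62 and 0.64 (endosome or vesicle), 0.71 and 0.72 (HSP70 partners) and -0.016 and -0.0016 (other J-domain genes). With a minimum mean count of 50, which tests fewer genes, they were 0.0066 (all members), 0.40 (class A), 0.052 (class C and ER), 0.054 (mitochondrion) and 0.68 (endosome or vesicle), and 0 other J-domain genes were called lower, since DNAJC5G was not tested there. At least 2-fold higher was called for 1 member by library size alone and at that filter, and at least 2-fold lower for 1 with limma on log2(CPM + 1) and with the GC and length offset. With that offset the class C median was 0.21, and 1 other J-domain gene, SEC63, was called higher. Leaving out 1 library gave medians of 0.043 to 0.14 (all members), 0.097 to 0.17 (class C), 0.055 to 0.15 (ER), -0.74 to -0.38 (not assigned) and 0.79 to 0.84 (HSP70 partners), with 1 to 3 members at least 2-fold higher and 1 to 2 at least 2-fold lower. The count of higher members was 1 without WT replicate 3 or ΔTUT4/7 replicate 2, and that of lower ones was 1 without WT replicate 1 or ΔTUT4/7 replicate 2 or 3.

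Of 14 members not called, 7 (DNAJB1, DNAJB2, DNAJB7, DNAJC3, DNAJC13, DNAJC24 and DNAJC25) were called in at least 1 alternative. Direction reversed for 4 members not called. DNAJB5 was at -0.081 (library size alone), -0.067 (upper quartile), -0.030 (minimum mean count of 50), -0.023 (GC and length offset) and -0.11 to 0.14 with 1 library left out, and DNAJC17 at -0.10, -0.091, -0.054, -0.032 and -0.093 to 0.095 in the same order, and -0.0046 with limma-voom. DNAJC13 was at -0.045 and -0.030 and SEC63 at -0.043 and -0.028 with library size alone and the upper quartile. With the GC and length offset DNAJC3 was at 0.082. The cause was not tested. Deviations of same-numbered libraries correlated at 0.052, -0.011 and -0.022, and those of differently numbered libraries at -0.090 to 0.095. This did not show a pairing by number, and with 3 libraries per group it cannot settle whether there was one. With a replicate block DNAJC24 was called lower at an adjusted p of 0.0458 in edgeR and 1 other J-domain gene, GAK, higher at 0.0485.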

Other observations

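The table also held transcripts named after members, listed here after their values were seen. Of 13 pseudogenes, 6 were tested and 4 were called higher, none lower, in edgeR. They were DNAJB6P1 (28.2 ± 4.77 to 47.8 ± 3.24 CPM, a log2 fold change of 0.75 ± 0.11), DNAJC8P1 (1.14 ± 0.21), DNAJC19P9 (0.60 ± 0.17) and DNAJA1P3 (0.56 ± 0.20), and each had the direction of its parent gene. DNAJB6P7 was at -0.63 ± 0.27, opposite to its parent DNAJB6, and did not pass the test (adjusted p 0.0510, edgeR). Reads of a processed pseudogene and its parent can be exchanged by the counting model, so these values are uncertain. Of 5 antisense, divergent or read-through transcripts, 4 were tested, none was called higher and 2 were called lower. Over all genes tested 28.6% were higher and 29.0% lower, and neither these transcripts nor the pseudogenes were tested against those shares. DNAJC27-AS1 fell by 1.70 (SE 0.46) from 13 to 24 counts in WT, beside a fall of 0.33 in DNAJC27. DNAJC3-DT, which starts from the promoter region of DNAJC3, fell by 0.47 (SE 0.16), while DNAJC3 was at -0.059 and did not pass the test.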
